A study of Mus musculus with 6 samples.

Results

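A set of 7 annexin genes other than annexin A2 was followed in RNA bound to tagged ribosomes from mouse cortex. The members were Anxa1, Anxa3, Anxa4, Anxa5, Anxa6, Anxa7 and Anxa11, and their values were taken from probe sets that name exactly 1 gene in the platform's annotation. Of the 7 listed genes 6 had such a probe set, 14 probe sets in all out of 34945 that name 1 gene, and these belong to 18193 genes. The only probe set that names Anxa11 also names 2 other genes, so no value is given for it. In 9 of the 14 probe sets, covering all 6 genes, the mean intensity reached 50 in at least 1 group, the limit that the series text proposes. The other 5 lay under 50 in every array.

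The samples came from 2 transgenic lines made for translating ribosome affinity purification (TRAP), in which a transgene on a bacterial artificial chromosome (BAC) puts a tag on the ribosomes of cells that use a chosen driver gene, and tagged ribosomes are then captured with their RNA. One group of 3 arrays came from the cortex of line DU9, driven by Glt25d2 (now Colgalt2), and the other 3 from line ES691, driven by S100a10. Both lines had been crossed for 3 to 5 generations from FVB onto C57BL/6, all animals were untreated, and neither age nor sex is given in the sources used here. Each driver is represented by 1 line, each array is labelled a biological replicate, and the series text states that the S100a10 BAC also marks cells that are not neurons. The deposited values are GCRMA intensities, a background-corrected and normalized brightness per probe set, with no depth attached. Precision is therefore limited by the number of arrays.

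Annexins are cytosolic proteins that bind acidic membrane phospholipids when calcium rises. They share a repeated core domain, which carries the calcium and lipid sites, and differ in their amino-terminal tails, through which several bind S100 or penta-EF-hand proteins. They are known for membrane repair, vesicle traffic and the organisation of the membrane skeleton. Annexin A1 is also secreted and acts on formyl peptide receptors to restrain inflammation.

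Of the 6 measured annexins 5 rose in S100a10 cells, and Anxa7 did not pass the test in either direction. In order of the difference they were Anxa1, Anxa4, Anxa3, Anxa5 and Anxa6, from 31.7-fold down to 2.19-fold. All 5 had groups of arrays that did not overlap. Each difference below is log2 intensity in S100a10 minus Glt25d2 arrays, with its standard error and the adjusted p of limma's moderated test (Benjamini-Hochberg over the 11821 genes tested, threshold 0.05). Of those genes 44.7% were called higher in S100a10 cells and 4.59% lower, and in 55.9% every S100a10 array lay above every Glt25d2 array. The median of the 6 annexin differences was 2.12 and that of all genes was 0.56. The share of genes called is thus high, and the count of 5 of 6 is to be read against it.

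**Figure D1:**
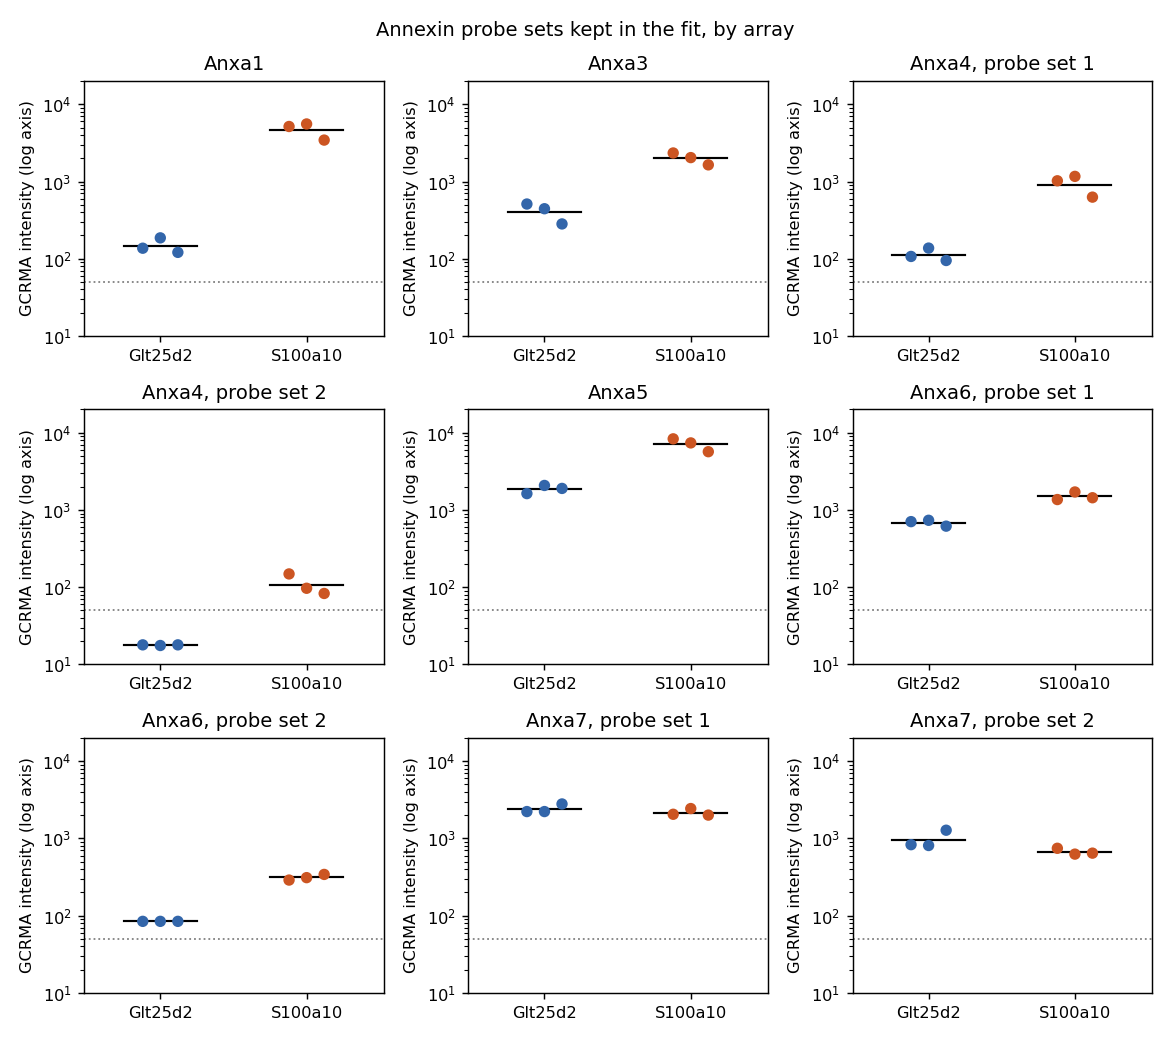
GCRMA intensity (log axis) of the 9 annexin probe sets kept in the fit, with 1 point per array, 3 arrays per line, a bar at the geometric mean and a dotted line at 50. The S100a10 points of Anxa1, Anxa3, Anxa4, Anxa5 and Anxa6 all sit above the Glt25d2 points, while the first Anxa7 probe set overlaps between the lines.

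Anxa1 had the largest difference of the 6. Its intensity was 137, 186 and 121 in Glt25d2 arrays 1 to 3, against 5158, 5561 and 3439 in S100a10 arrays 1 to 3, the order kept in all values below. The lowest S100a10 array lay far above the highest Glt25d2 array. The group means were 148 ± 34.1 and 4719 ± 1127 (SD, n = 3 each), and the log2 difference was 4.99 (SE 0.25, limma adjusted p = 5.06e-05). Among the 11821 genes this difference ranked 113 from the top. A second Anxa1 probe set lay between 6.83 and 7.65 in all arrays and was not tested.

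Anxa4, an annexin known from secretory epithelia, gave 107, 137 and 94.9 in Glt25d2 arrays and 1022, 1166 and 628 in S100a10 arrays. The third S100a10 array was the lowest of its group, as for Anxa1, and still stood above every Glt25d2 array. The difference was 3.02 (SE 0.27, limma adjusted p = 4.24e-04), or 8.12-fold. A second kept probe set of Anxa4 held 17.9, 17.6 and 17.9 in Glt25d2 arrays, under the limit of 50, and 149, 96.9 and 83.0 in S100a10 arrays. With 50 in place of the values under the limit, this probe set stood at least 2.12-fold higher in the S100a10 group (limma adjusted p = 3.91e-04 over all probe sets). The third Anxa4 probe set stayed under 50 throughout, with means of 9.14 and 44.3.

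Anxa3, an annexin known from neutrophils and also expressed by microglia, had 511, 444 and 282 in Glt25d2 arrays and 2342, 2040 and 1643 in S100a10 arrays. Of the Glt25d2 arrays the third was the lowest. The difference was 2.31 (SE 0.26, limma adjusted p = 0.00101), or 4.97-fold, and without that array it was 2.06 (limma adjusted p = 8.32e-05). Anxa5, whose protein binds exposed phosphatidylserine and is used to stain dying cells, had 1629, 2078 and 1902 in Glt25d2 arrays. In the S100a10 arrays it reached 8339, 7388 and 5685. Both groups were far above the limit of 50, and the difference was 1.92 (SE 0.18, limma adjusted p = 4.78e-04), or 3.79-fold.

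Anxa6 encodes an annexin with a duplicated core that binds cholesterol-rich membrane and brings protein kinase C and a Ras inactivator to it. Its main probe set had 707, 735 and 617 in Glt25d2 arrays and 1365, 1711 and 1441 in S100a10 arrays. The difference was 1.13 (SE 0.13, limma adjusted p = 0.00111), and it lay 0.57 above the median gene. This call depended on the scaling of the arrays: the difference was 0.62 after quantile normalization (adjusted p = 0.0177) and 0.43 after each array was centred on its median (adjusted p = 0.0525). A second probe set gave 84.4 in all 3 Glt25d2 arrays and 289, 311 and 342 in S100a10 arrays, a difference of 1.89 (limma adjusted p = 6.81e-05 over all probe sets). Identical values in 1 group understate its spread. This probe set passed after centring as well, with 1.19 (adjusted p = 0.00133).

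Anxa7, or synexin, promotes contact and fusion of secretory granules and binds the calcium sensor sorcin. Its main probe set had 2229, 2229 and 2796 in Glt25d2 arrays and 2056, 2438 and 2006 in S100a10 arrays. The groups overlapped, and the difference of -0.16 (SE 0.14, limma adjusted p = 0.397) had a 95% interval from -0.51 to 0.20. Its second kept probe set had 831, 811 and 1278 in Glt25d2 arrays and 746, 627 and 645 in S100a10 arrays, without overlap. That difference was -0.50 (SE 0.21, limma adjusted p = 0.0938 over all probe sets). After rescaling, both probe sets were called lower in S100a10 cells. The main one differed by -0.51 after quantile normalization (adjusted p = 0.0341) and by -0.86 after centring (adjusted p = 0.0114), the second by -1.02 (adjusted p = 0.00970) and -1.21 (adjusted p = 0.00988). Relative to the median gene, Anxa7 lay at -0.71 as deposited.

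**Figure D2:**
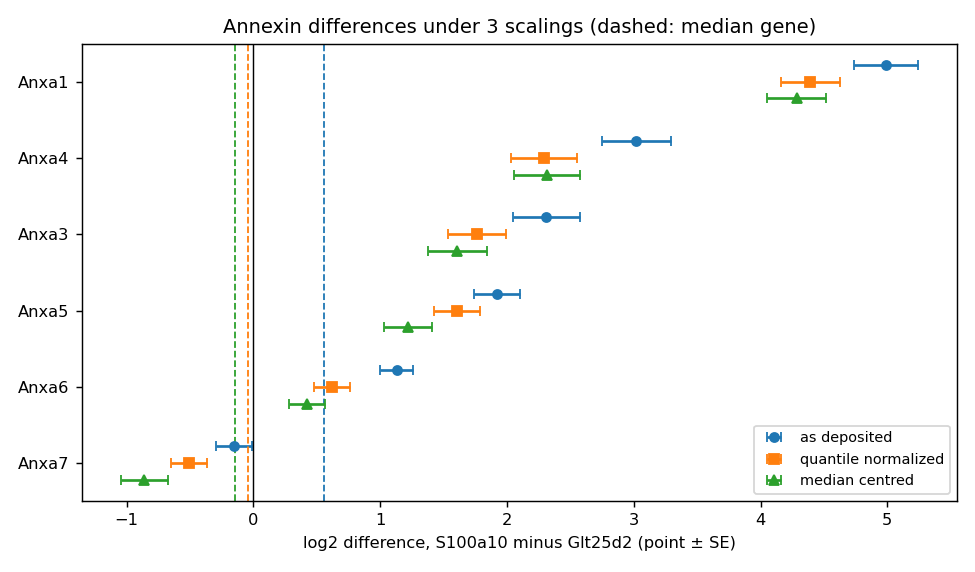
Log2 difference, S100a10 minus Glt25d2, of the 6 measured annexins (point ± SE) as deposited, after quantile normalization and after median centring, with dashed lines at the median gene of each scaling. The 5 annexins called higher stay to the right of 0 in all 3 scalings, Anxa6 moves from 1.13 to 0.43, and Anxa7 moves from -0.16 to -0.86.

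The arrays of the lines differed as a whole. Over all probe sets the median intensity was 20.4 to 21.3 in Glt25d2 and 35.5 to 35.8 in S100a10 arrays. The median gene stood at 0.56 as deposited, whereas quantile normalization brought it to -0.04 and centring to -0.14. Anxa1, Anxa3, Anxa4 and Anxa5 passed in each of these fits. Their differences after quantile normalization were 4.39, 1.76, 2.29 and 1.61, and after centring 4.28, 1.61, 2.32 and 1.22. After quantile normalization 17.8% of genes were called higher and 20.6% lower, and 5 of the 6 annexins were higher and 1 lower. With centring the shares were 17% and 25.7%, with 4 annexins higher and 1 lower. Leaving out any single array left the limma count at 5 higher and 0 lower, and with all arrays 0 annexins were lower at an unadjusted p under 0.05. Over all genes the number higher with 1 array left out ranged from 4263 of 11818 to 6606 of 11822.

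Of the 9 kept annexin probe sets 7 were called higher, against 44.2% of all 21291 probe sets tested. They include both kept probe sets of Anxa4 and both of Anxa6. The 2 that did not pass are those of Anxa7. The second Anxa4 probe set passed the filter only through the S100a10 group, so it could hardly have been called lower. With both group means at 50 or more, that probe set dropped out and 6 annexin probe sets were called higher. Under this filter 3815 of 10277 genes were called higher, and the share over all probe sets was not computed.

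**Figure D3:**
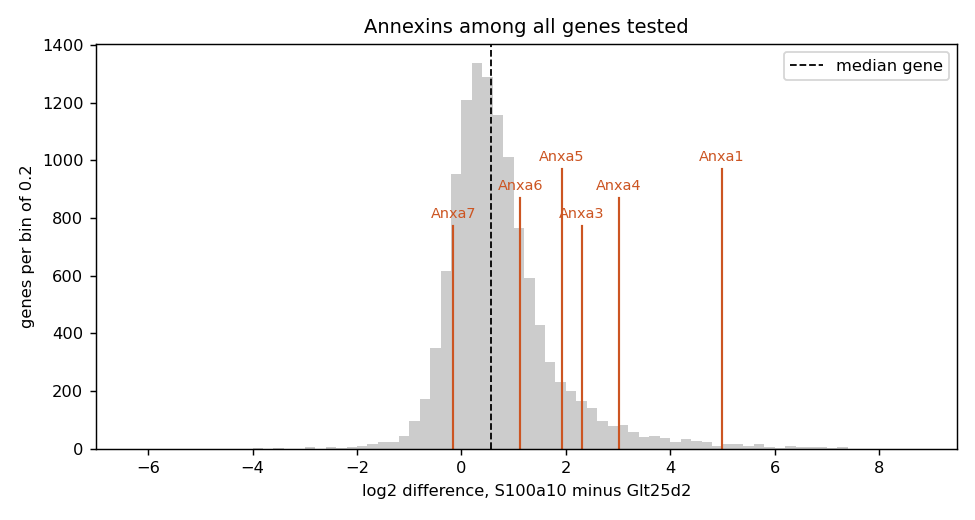
Histogram of the log2 differences, S100a10 minus Glt25d2, of the 11821 genes tested in bins of 0.2, with the median gene (dashed, 0.56) and the 6 annexins marked. Anxa1 lies in the right tail at 4.99, Anxa6 at 1.13 lies just right of the median gene, and Anxa7 at -0.16 lies left of it.

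The differences of the annexins were also set against each other. A factor common to a whole array cancels in ratios of annexins within it, but a shift that varies with intensity does not. Neighbours in the order of differences were compared in this way, a step chosen after the values were seen. That order is the one of the deposited values. After quantile normalization without Glt25d2 replicate 3, Anxa3 and Anxa5 differed by 1.54 and 1.59, the other way round. The level of such a ratio has no meaning, since probe sets differ in their response, and only its change between lines was read. The gene with the larger difference is the numerator, which fixes the direction of that change in every pair. The log2 ratio of Anxa1 to Anxa4 was 0.38 ± 0.051 in Glt25d2 and 2.35 ± 0.10 in S100a10 arrays (SD, n = 3 each; exact permutation test, 2-sided p = 0.1). The ratio of Anxa4 to Anxa3 changed by 0.71, that of Anxa5 to Anxa6 by 0.79 and that of Anxa6 to Anxa7 by 1.29, each without overlap between the lines (exact permutation p = 0.1 each, n = 3). For Anxa3 and Anxa5 the ratio overlapped, with a change of 0.39 (exact permutation p = 0.4, n = 3). Across these 5 pairs the adjusted p was 0.4 for Anxa3 and Anxa5 and 0.125 for the other 4. With 3 arrays against 3 the smallest p this test can give is 0.1, so none of the pairs could pass.

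**Figure D4:**
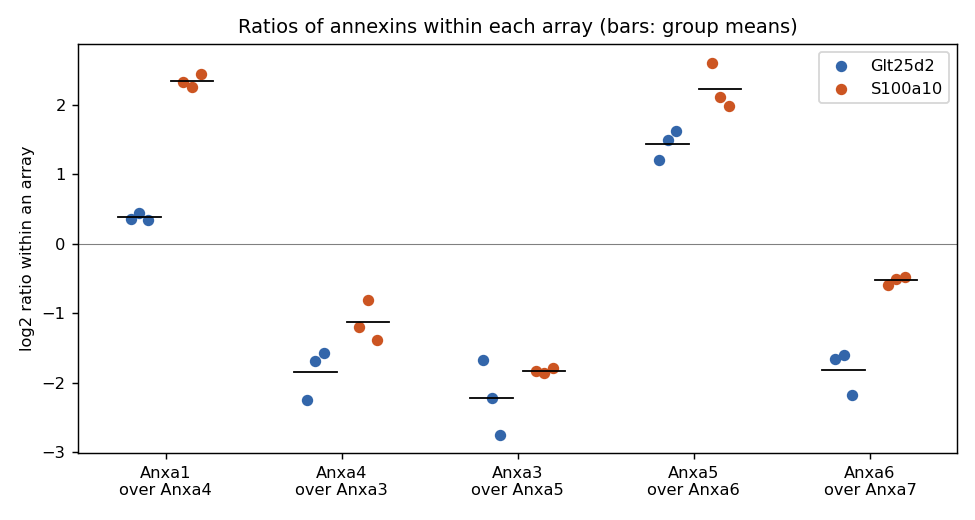
Log2 ratio of neighbouring annexins within each array, with 1 point per array and bars at the group means of the 3 Glt25d2 and 3 S100a10 arrays. The groups do not overlap in 4 of the 5 pairs, whose direction the choice of numerator fixes, and the Anxa3 over Anxa5 points overlap.

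The lowest array of each group was also read off for the 6 annexins. How often each array was the lowest over all genes was not counted, so these counts have no background. The third S100a10 array was the lowest of its group for 5 of the 6 annexins, all but Anxa6. Against the mean log2 of the other S100a10 arrays it lay at -0.64 for Anxa1, -0.80 for Anxa4, -0.47 for Anxa5 and -0.41 for Anxa3, but at -0.085 for Anxa6 and -0.16 for Anxa7. The median gene of that array lay at -0.023. In the Glt25d2 group the third array was the lowest for Anxa1, Anxa3, Anxa4 and Anxa6 and the highest for Anxa7. This array stands apart from its group over the whole table, with 993 genes over 4-fold below the other Glt25d2 arrays. Without it the differences were 4.85 for Anxa1, 2.90 for Anxa4, 2.06 for Anxa3, 1.94 for Anxa5, 1.06 for Anxa6 and -0.046 for Anxa7, and the same 5 annexins were called higher, where 55.9% of all genes were called higher and 6.33% lower in that fit.

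To show the start regions of the annexin with the largest difference, of one with a smaller difference and of one that did not pass, the RefSeq promoter windows of Anxa1, Anxa5 and Anxa7 (GRCm38.p6, 250 bases before to 50 after the annotated start, 5′ to 3′ on the gene's strand) are printed here, with the TATA-box letters TATAAA in capitals where they occur.
Anxa1, chr19:20390622-20390921, minus strand: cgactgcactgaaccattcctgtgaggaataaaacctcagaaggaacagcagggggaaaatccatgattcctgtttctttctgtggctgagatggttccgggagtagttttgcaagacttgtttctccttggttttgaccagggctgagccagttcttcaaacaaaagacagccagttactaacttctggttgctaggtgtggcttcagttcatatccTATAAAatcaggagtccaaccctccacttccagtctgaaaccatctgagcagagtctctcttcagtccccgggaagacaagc
Anxa5, chr3:36475838-36476137, minus strand: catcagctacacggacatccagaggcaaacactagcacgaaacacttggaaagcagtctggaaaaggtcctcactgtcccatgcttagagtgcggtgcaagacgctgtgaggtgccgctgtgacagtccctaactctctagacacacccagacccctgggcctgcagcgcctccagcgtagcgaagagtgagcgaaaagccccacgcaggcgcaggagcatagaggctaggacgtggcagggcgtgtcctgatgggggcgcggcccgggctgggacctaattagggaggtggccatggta
Anxa7 first start, chr14:20480084-20480383, minus strand: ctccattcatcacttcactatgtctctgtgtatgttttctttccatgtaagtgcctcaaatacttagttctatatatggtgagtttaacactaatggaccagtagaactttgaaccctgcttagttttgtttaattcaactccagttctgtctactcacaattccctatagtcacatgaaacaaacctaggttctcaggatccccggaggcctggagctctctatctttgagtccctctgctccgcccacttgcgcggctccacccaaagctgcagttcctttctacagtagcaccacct
Anxa7 second start, chr14:20479892-20480191, minus strand: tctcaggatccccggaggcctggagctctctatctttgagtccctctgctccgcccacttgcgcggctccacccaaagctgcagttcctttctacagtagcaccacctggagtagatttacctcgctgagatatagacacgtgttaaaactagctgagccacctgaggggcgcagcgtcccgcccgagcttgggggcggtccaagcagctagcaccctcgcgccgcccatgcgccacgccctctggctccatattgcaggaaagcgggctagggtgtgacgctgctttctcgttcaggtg
The search covered TATAAA on both strands. It matched once in Anxa1, on the gene's strand from 32 bases before the start. The windows of Anxa4, Anxa5, Anxa7 and Anxa11 held no match. Only 5 members had a window, and Anxa3 and Anxa6 had none. Of all 32851 windows 13.6% hold these letters on either strand and 8.32% on the gene's strand. The Anxa1 window holds 3 CpG dinucleotides, that of Anxa5 holds 16, and those of Anxa7 hold 4 and 19, where the median window holds 7. The windows of Anxa4 hold 20 and 3, and that of Anxa11 holds 25. These letter counts describe the windows and say nothing about which factors bind there.

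The other annexins give the frame for these values. Anxa2, whose protein forms a complex with the S100a10 protein, differed by 4.28 (SE 0.18, limma adjusted p = 2.81e-05), between Anxa1 and Anxa4 in size. Anxa8, an annexin known from skin and other epithelia, was under 50 in every Glt25d2 array and had 370, 399 and 238 in S100a10 arrays, which makes it at least 6.55-fold higher there (limma adjusted p = 1.91e-05). The probe sets of Anxa9, Anxa10 and Anxa13 lay under 50 in every array. The driver S100a10 itself differed by 2.25. Colgalt2 was under 50 in every S100a10 array and at least 21.1-fold higher in the Glt25d2 group. Since a BAC may bring along its driver gene, these 2 values are read as a check of the labels.

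Genes that work with annexins were taken as a list of 21, of which 15 could be tested. Of the 15, 10 rose, none fell and 5 did not pass in limma's test, against 44.7% of all genes called higher and 4.59% lower. At an unadjusted p under 0.05 the counts were 11 higher and 0 lower. The median of the 15 differences was 0.94, or 0.38 above the median gene. Leaving out the driver S100a10, whose value checks the labels, 9 of 14 rose. Of the 10 that rose, S100a4, Myof, Pla2g4a and Egfr passed the filter only through the S100a10 group. They could hardly have been called lower. With both group means at 50 or more, 6 partners were called higher and 0 lower, against 3815 higher and 422 lower of 10277 genes. By role, both other S100 partners that could be tested rose. S100a6, which binds annexin A11 and others, went from 189, 238 and 189 to 2670, 2475 and 1990, a difference of 3.53 (limma adjusted p = 3.70e-05). S100a4 was under 50 in all Glt25d2 arrays and at least 3.31-fold higher in S100a10 cells. S100a11, the partner of annexin A1, had no probe set of its own.

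Among penta-EF-hand proteins, sorcin (Sri), a partner of annexin A7, rose by 0.87 (limma adjusted p = 0.00347), and the calpain genes Capn2 and Capns1, a protease pair that cuts annexins and other membrane-skeleton proteins, rose by 0.94 (limma adjusted p = 0.00150) and 0.86 (limma adjusted p = 0.00704). After centring they stood at 0.17, 0.24 and 0.16 and did not pass. Capns1 also missed the threshold after quantile normalization (0.52, limma adjusted p = 0.0529). Sri missed it when its probe sets were averaged (0.56, limma adjusted p = 0.0584). Pdcd6, the calcium sensor that binds annexins A7 and A11, differed by -0.041 (limma adjusted p = 0.730), and by -0.74 after centring, when it was called lower. The annexin A1 receptor gene Fpr2 did not exceed 11.5 in any array, and Fpr1 had no probe set of its own. In membrane repair, Myof, a ferlin that acts in membrane fusion, stood at least 1.90-fold higher in the S100a10 group (limma adjusted p = 1.15e-04). The ESCRT genes Chmp4b and Pdcd6ip differed by 0.098 and -0.23 and did not pass, while Dysf and Trim72 stayed under 50.

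Of the enzymes tied to annexins, Pla2g4a, the cytosolic phospholipase A2 that annexin A1 is known to restrain, was under 50 in all Glt25d2 arrays. It reached 182, 164 and 153 in the S100a10 group, a level at least 3.32-fold higher (limma adjusted p = 1.14e-05). Egfr, a receptor whose kinase phosphorylates annexin A1, was at least 2.15-fold higher (limma adjusted p = 1.94e-04) as deposited; its log2 difference of 0.62 after quantile normalization (adjusted p = 0.0178) is a fold below that bound. Trpm7, a channel with a kinase domain that also phosphorylates annexin A1, rose by 1.28 (limma adjusted p = 0.0201), from 556, 566 and 273 to 1040, 927 and 1270. It did not pass after quantile normalization (0.68, adjusted p = 0.102) or centring (0.57, adjusted p = 0.154), or when any S100a10 array was left out. Prkca and Rasa1, both partners of annexin A6, differed by 0.30 and 0.26 and did not pass.

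For each annexin the 3 genes with the most similar profile were sought among the 11821, by the root mean square distance of log2 values centred on the gene's mean over the 6 arrays. Nearest to Anxa1 were Trip6 (distance 0.18), Cnn2 (0.19) and Lgals1 (0.19), which encode a focal adhesion protein, a calponin and galectin 1. For Anxa4 they were Ttc38 (0.082), Tmem51 (0.13) and S100a1 (0.15), and for Anxa3 they were Kif1c (0.11), Myl12a (0.12) and Ifit1 (0.15). Anxa5 lay nearest to Stk38 (0.072), Hilpda (0.089) and Sp1 (0.096). The nearest genes of Anxa6 were Srebf2 (0.059), Nipbl (0.061) and Tsc22d4 (0.062), and those of Anxa7 were Recql (0.027), Ccdc103 (0.037) and Camsap2 (0.043). Of these genes Trip6, Ttc38 and Hilpda were under 50 in every Glt25d2 array, so their distances rest in part on background-level values. The 6 arrays in 2 groups carry mainly the difference between lines, so the distance says little beyond it.

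Several cell types use annexins, so marker lists were read in the same arrays. The arrays hold ribosome-bound RNA pooled over many cells, and none holds RNA from before the capture. The number of tagged cells of a type, the RNA per cell and RNA carried over from untagged cells cannot be told apart. The pyramidal markers had summed intensities of 12605 to 16509 in Glt25d2 and 12796 to 13166 in S100a10 arrays over 6 genes. Of these 3 rose, Slc17a7 by 2.12, Emx1 by 1.97 and Neurod6 by 0.94. Another 2 fell, Fezf2 by 1.24 and Bcl11b by 1.66, so the overlapping sums hold changes in both directions. Slc17a7 lay at 46.1 in Glt25d2 replicate 3, and without that array it differed by 1.60. Neurod6 did not pass after centring (0.23, limma adjusted p = 0.448). Over 7 neuronal markers the sum was 84334 to 87907 and 101058 to 102970, with 2 genes higher and 1 lower. The sums are of deposited values. The neuronal counts were 2 higher and 2 lower after quantile normalization, and 1 and 3 after centring. For the pyramidal list they were 2 and 2 after centring. The list of fibroblasts and meninges moved in the direction of Anxa1 to Anxa6: all 8 of its tested genes rose, and its summed intensity over 9 genes was 230 to 421 in Glt25d2 and 23319 to 25335 in S100a10 arrays. In Glt25d2 arrays Col1a1, Col1a2, Col3a1, Lum, Foxc1 and Slc6a13 were under 50 throughout. Of these, Col1a1 reached a mean of 50 in neither group and was not tested. The others entered only through the S100a10 group, so they could hardly have been called lower. Over all genes 44.7% were called higher and 4.59% lower. The mural list moved too, with 4 of 6 tested genes higher and 1 lower and sums of 703 to 875 and 4336 to 5646 over 8 genes. Its higher genes Pdgfrb, Tagln and Myl9 also entered only through the S100a10 group. After quantile normalization the mural counts were 4 higher and 2 lower. Within the S100a10 group the third array had the lowest sum in the fibroblast, mural, neuronal and microglial lists, and not in the others.

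Microglia, which express Anxa3 among the annexins, had 1 of 4 tested markers higher and none lower, with sums of 316 to 525 and 541 to 849 over 7 genes. Among their defining genes C1qa, P2ry12 and Itgam were under 50 in every array. Tmem119 was under 50 in Glt25d2 arrays and at least 3.99-fold higher in the S100a10 group (limma adjusted p = 1.96e-05). Cx3cr1 reached 50 only in 2 S100a10 arrays, at 69.2 and 51.6. After quantile normalization without Glt25d2 replicate 3 the microglial counts were 1 higher and 2 lower. For astrocytes 2 of 7 rose and 2 fell, with overlapping sums of 10990 to 17564 and 15668 to 20735, and the counts were 4 and 3 without Glt25d2 replicate 3 and 1 and 2 after centring. Oligodendrocyte markers gave 1 of 6 higher and 1 lower, with sums of 16430 to 22775 and 8957 to 15261. Those counts were 1 and 3 without Glt25d2 replicate 3, 0 and 2 after quantile normalization and 0 and 3 after centring. Endothelial markers gave 0 of 3 higher and 1 lower, with sums of 1122, 826 and 291 in the Glt25d2 arrays and 247 to 311 in the S100a10 arrays over 7 genes. All 3 were lower without Glt25d2 replicate 3, after quantile normalization and after centring, and Pecam1, Cdh5 and Flt1 were under 50 in every array. The ependymal and choroid plexus list had both of its tested genes higher, with sums of 84.5 to 94.3 and 197 to 417 over 5 genes, and Foxj1 and Folr1 under 50 in every array. Ttr had 36.9, 45.2 and 261 in the S100a10 arrays, so only the third reached 50. The tested genes, Ttr and Clic6, missed the threshold once the arrays were quantile normalized or centred, and Clic6 then took a negative sign, -0.38 and -0.15. Tmem119, Cx3cr1, Olig2 and Ttr entered the test only through the S100a10 group, and Gfap only through the Glt25d2 group. No marker value was exactly 0 in any array. The part of these cell types in the annexin differences was not tested.

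**Figure D5:**
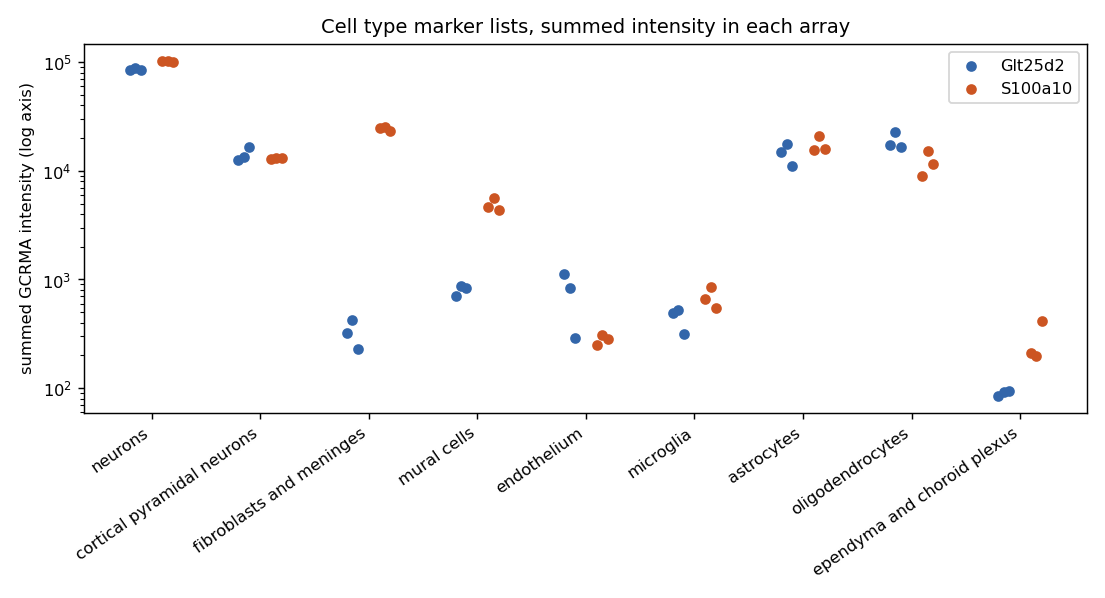
Summed GCRMA intensity (log axis) of each cell type marker list, with 1 point per array for the 3 Glt25d2 and 3 S100a10 arrays. The fibroblast and meningeal list shows the widest gap, 230 to 421 against 23319 to 25335, while the pyramidal neuron sums overlap although 3 of their genes rose and 2 fell.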

How the data were processed

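RNA bound to tagged ribosomes was measured on 6 Affymetrix mouse arrays, 3 per line, after a 2-cycle amplification from 15 ng, per the labels' protocols. The authors deposited linear-scale intensities made with GCRMA, as the submitters' processing notes name it. The sources used here give no version for it. Replicates are held as 6 separate columns. Of 45101 probe sets 64 controls were left out. The platform annotation names 1 gene for 34945 of the others, several for 932 and none for 9160. RefSeq's gene table held the Entrez number of 34741 and changed 0 symbols.

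Values were log2-transformed with no pseudocount. A probe set entered when either group mean reached 50, and a gene was represented by the probe set, among those kept, whose mean log2 was highest. S100a10 minus Glt25d2 was fitted over all kept genes, and again over all kept probe sets, with lmFit and eBayes of limma 3.58.1 (R 4.3.3), 2-sided, with Benjamini-Hochberg adjustment and a threshold of 0.05. Folds against a group with all arrays under 50 are bounds, computed as the geometric mean of the brighter group over 50, and hold for the deposited scaling. The script was tested on simulated data. The members and lists were chosen with earlier results of these data known. The genes named are all members, the other annexins, both drivers, the partners that pass and the 3 nearest profiles per member; further partners and markers were named after their values were seen. The numbers of the replicates were not used as pairs: between lines, same-numbered arrays deviated from their group means with correlations over genes of -0.486, 0.27 and -0.258. Alternatives were other filters, a pseudocount of 16, a floor of 50, quantile normalization, median centring, a replicate block, array weights, a trended prior, averaging a gene's probe sets and leaving out each array. Promoter windows are from RefSeq (GRCm38.p6). Plots were drawn with matplotlib 3.10.9 under Python 3.11.15.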

Additional observations from a re-analysis of the deposited data

How the results depend on the processing

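Over the 17 alternatives Anxa1, Anxa3, Anxa4 and Anxa5 were called higher in S100a10 cells each time, with log2 differences of 4.27 to 5.20, 1.54 to 2.49, 2.22 to 3.29 and 1.22 to 2.08. Anxa6 ranged from 0.43 to 1.51 and missed the threshold after median centring alone. Anxa7 kept a negative sign, from -0.86 to -0.046, and was called lower in 3 rescaled fits. Thus 1 annexin gene and 2 annexin probe sets were lower after quantile normalization, after median centring, and after quantile normalization with Glt25d2 replicate 3 left out, against 0 as deposited. Of the partners 6 instead of 10 were higher with both group means at 50 or more, which drops genes under the limit in either line, and 6 after centring. Over all genes 3815 of 10277 were higher in the first of these fits and 2004 of 11821 in the second. The number of partners lower rose from 0 to 1 without a filter (Trim72, -0.33, at most 6.78 in any array), to 1 after quantile normalization (Pdcd6ip, -0.89) and to 3 after centring (Pdcd6, Pdcd6ip and Chmp4b). Genes called lower numbered 1645 of 18193 without a filter, 2424 of 11792 after quantile normalization and 3043 of 11821 after centring. They numbered 2984 of 11857 after quantile normalization with Glt25d2 replicate 3 left out. The counts of annexins and partners lower are to be read against these shares. With each array left out in turn, 5 annexin genes and 7 annexin probe sets were higher every time, and 9 to 11 partners. Over all genes the number higher then ranged from 4263 of 11818 to 6606 of 11822. With the replicate number as a block the annexin count stayed at 5, with adjusted p values from 0.00122 for Anxa1 to 0.00902 for Anxa6, and 9 partners passed, Trpm7 being lost (adjusted p = 0.0620). The count over all genes was then 4222 higher and 327 lower, against 5285 and 542. The cause of these changes was not tested.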
